A study of Homo sapiens with 6 samples.

Results

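The genes described here are 44 genes of the RAS-MAPK pathway and of the immediate early response, chosen by name from the 58243 genes of the deposited count table. All 44 were found in it by symbol. They were measured by RNA sequencing in 6 libraries of cells labelled Hep3B, a human hepatocellular carcinoma line, 3 transfected with the control small interfering RNA si-NC and 3 with si-SNHG17-1, which targets the long noncoding RNA SNHG17. The labels give no time after transfection. They do not say whether replicates came from separate cultures, so the p-values reflect how far these libraries vary, a spread that could be technical. The question of the comparison is which genes differ after si-SNHG17-1, when SNHG17 is lowered. A single small interfering RNA targeted SNHG17, so effects of its loss and other effects of that small interfering RNA cannot be told apart.

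In the RAS-MAPK pathway, growth factor receptors load the small GTPases of the RAS family with GTP, and RAS recruits RAF kinases, which phosphorylate the MEK kinases MAP2K1 and MAP2K2, which in turn phosphorylate the ERK kinases, MAPK3 among them. Active ERK phosphorylates transcription factors at the promoters of immediate early genes such as FOS, EGR1 and IER2, which are switched on within minutes without new protein synthesis. The same signal induces its own brakes, the dual-specificity phosphatases (DUSP) that dephosphorylate MAP kinases and the SPRY and SPRED proteins that act upstream at RAS and RAF. JNK and p38, the stress-activated MAP kinases, feed the same AP-1 and EGR promoters and have DUSPs of their own. The pathway is often active in liver cancer, in cell lines as in tumours.

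Total counts were 30207055 to 42271168 per library. SNHG17, the targeted RNA, had counts of 843, 953 and 948 in si-NC against 307, 338 and 254 after si-SNHG17-1, 35.2% of the control level in CPM (counts relative to the library's TMM-scaled total; log2 fold change −1.51, standard error 0.12, edgeR adjusted p = 0.00101). An exact permutation test (two-sided) on SNHG17 returned p = 0.1, and 3 libraries a group permit no smaller value. The labelled cell type was not borne out by its markers: of 12 hepatocyte and hepatoma genes, 10 were under 1 CPM in both groups, TTR and GPC3 were at 0 counts in every library, and their summed level was 5.20 to 5.79 CPM in si-NC and 5.60 to 6.96 CPM in si-SNHG17-1. Of 6 fibroblast markers, 5 were above 1 CPM and COL1A2 was at 0 in every library. Their summed level was 182 to 199.8 CPM in si-NC and 244 to 257 CPM in si-SNHG17-1, with COL1A1 and COL3A1 higher (log2 fold changes of 0.36 and 0.52, edgeR adjusted p = 0.0485 and 0.0175). DCN was higher and PDGFRB lower in every si-SNHG17-1 library, neither called (log2 fold changes of 0.86 and −0.28, edgeR adjusted p = 0.0511 and 0.311). The LUM libraries overlapped. Of 6 leukocyte markers 5 were under 1 CPM, PTPRC among them, and CD68 made up nearly all of a sum of 33.2 to 39.6 CPM in si-NC and 42.3 to 60.5 CPM in si-SNHG17-1. The 5 endothelial markers summed to 2.77 to 4.41 CPM in si-NC and 6.32 to 8.22 CPM in si-SNHG17-1, with KDR at 0 in every library and CDH5 higher (log2 fold change 1.79, edgeR adjusted p = 0.0135). The part of these markers in the results below was not tested. In RNA from bulk cells, fewer cells that express a gene and less RNA per cell cannot be told apart.

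After si-SNHG17-1, 11 of the 44 genes were higher and 3 were lower at an adjusted p under 0.05 by the edgeR quasi-likelihood test across all genes. Over all 18679 genes tested, 10.5% were called, 5.25% higher and 5.21% lower, against 31.8% of the 44 members. The members were chosen with earlier results of these data known, so this share is no independent evidence. Among genes with a mean of at least 1 CPM, a level that the members mostly exceed, 12.5% were called. That cut does not match the level of the members, whose median in si-NC was 59.2 CPM, against 16.4 CPM for all genes tested. The rises were NRAS, the AP-1 factor JUN, EGR1, SRF, 5 dual-specificity phosphatases (DUSP1, DUSP4, DUSP5, DUSP8 and DUSP10), KLF6 and KLF10. DUSP14, SPRED2 and ETV4 fell. Of the others, 29 were tested and not called, and EGR2 had too few counts to be tested. The median log2 fold change of the 43 tested members was 0.092, and that of all genes tested was −0.0017. The median absolute value was 0.30 for the members and 0.28 for all genes. The libraries of the 2 groups did not overlap for 22 of the 44 members, against 33.7% of all genes tested. The si-SNHG17-1 libraries were all above the si-NC libraries for 14 members (16.4% of all genes) and all below them for 8 (17.3%). Exons of 9 members overlap exons of another gene, among them 1 called member, ETV4.

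**Figure D1:**
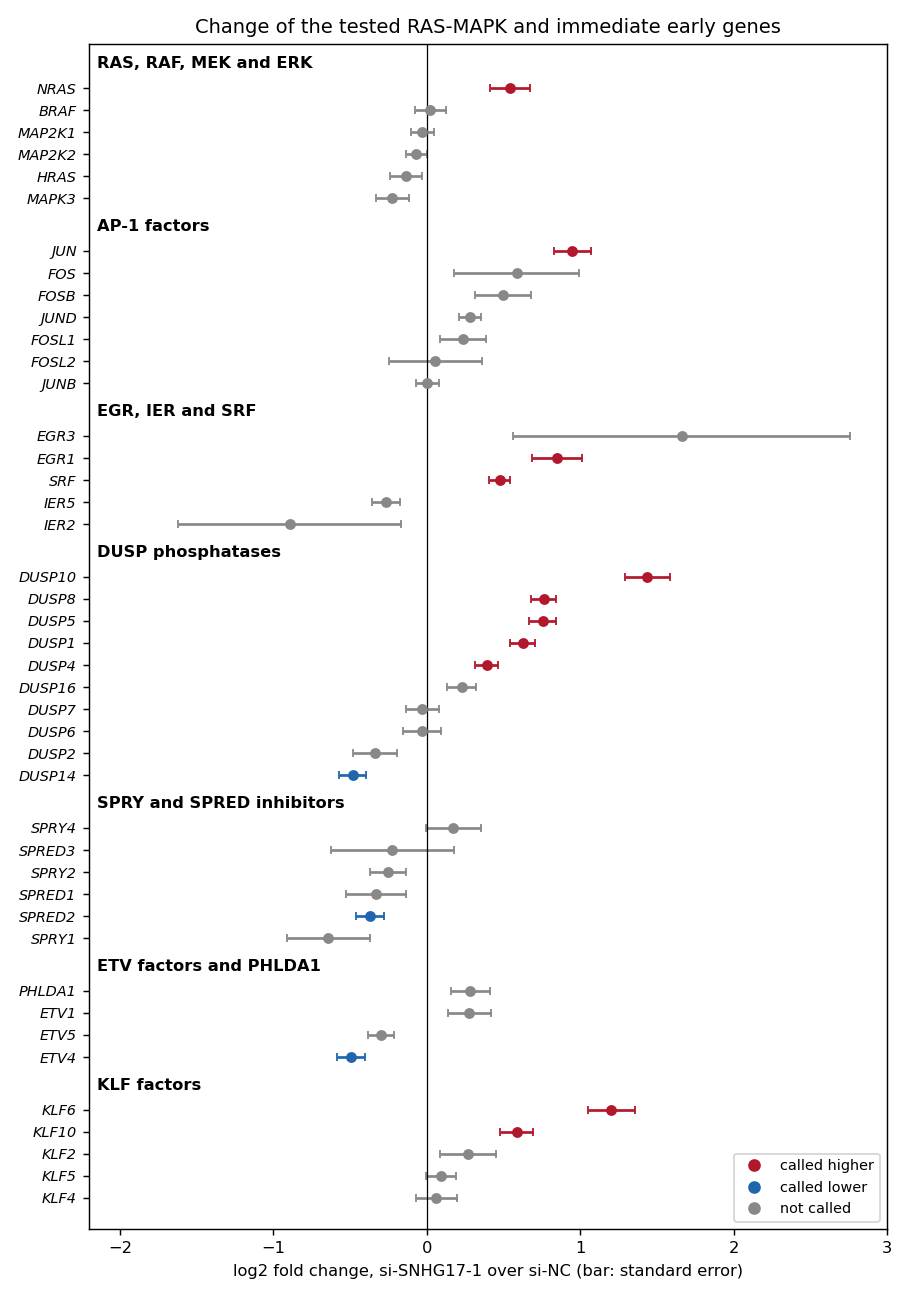
Log2 fold change (x axis, si-SNHG17-1 over si-NC) with its standard error for the 43 tested members, grouped by role and coloured by the call of the edgeR test. Called rises run from 0.39 (DUSP4) to 1.44 (DUSP10), and the 3 called falls lie between −0.50 and −0.37.

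Called members did not all stand equally firm when 1 library was left out. JUN, SRF, DUSP1, DUSP5, DUSP8, DUSP10 and KLF6 kept the edgeR call in all 6 such fits, 7 genes in all. The other 7 called members, among them all 3 that fell, lost it in 3 to 6 of these fits, as given for each gene below. The number of members called higher lay between 7, with si-NC replicate 3 or replicate 2 of si-SNHG17-1 removed, and 10, with si-NC replicate 2 removed. None was called lower with si-NC replicate 3, or replicate 1 or 3 of si-SNHG17-1, removed, and 1 with replicate 2 of si-SNHG17-1 removed.

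**Figure D2:**
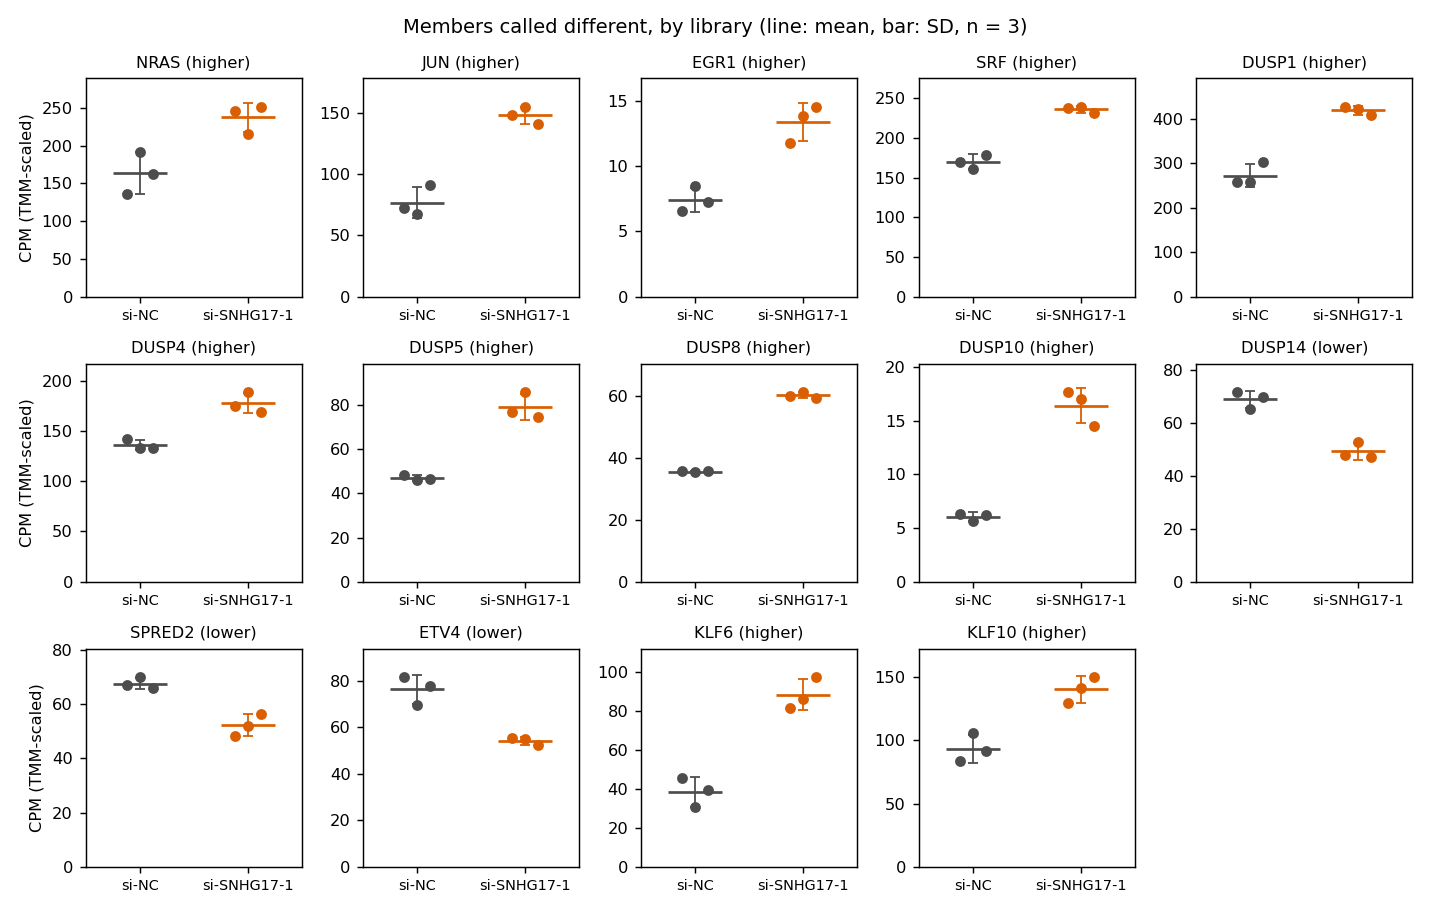
TMM-scaled CPM (y axis, from 0) of the 14 called members in each library, with the mean and SD of 3 libraries per group. In every panel the 3 si-SNHG17-1 libraries lie on 1 side of the 3 si-NC libraries.

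Among the 6 signalling proteins themselves, NRAS alone was called (16.7%, against 10.5% of all genes tested). NRAS, a RAS GTPase that sits at the plasma membrane (ENSG00000213281.4, chromosome 1, 114704469 to 114716894), read 136, 192 and 163 CPM in the si-NC libraries and 246, 215 and 252 CPM in the si-SNHG17-1 libraries. The groups did not overlap, though the highest si-NC and the lowest si-SNHG17-1 library were close. The mean rose 1.45-fold, from 164 ± 28.0 to 238 ± 19.6 CPM (SD, n = 3 each; log2 fold change 0.54, standard error 0.13, edgeR adjusted p = 0.0422). This edgeR call was lost in 5 of the 6 leave-one-out fits, with an adjusted p of 0.0655 (si-NC replicate 1 out), 0.110 (si-NC replicate 3 out), 0.142 (si-SNHG17-1 replicate 1 out), 0.0837 (si-SNHG17-1 replicate 2 out) and 0.142 (si-SNHG17-1 replicate 3 out). HRAS, the related GTPase, read 28.8, 28.2 and 29.1 CPM against 26.0, 24.5 and 27.8 CPM, lower in all 3 si-SNHG17-1 libraries, with a log2 fold change of −0.14 that was not called (edgeR adjusted p = 0.463). BRAF, the RAF kinase downstream of RAS, stood at 47.7, 47.2 and 40.6 CPM and 45.1, 44.7 and 47.8 CPM, and these ranges overlapped. MAP2K2, a MEK kinase, was at 217, 213 and 215 CPM in si-NC and 198, 198 and 219 CPM in si-SNHG17-1, also overlapping. MAP2K1 and MAPK3 had log2 fold changes of −0.03 and −0.23 with standard errors of 0.08 and 0.11, neither called (edgeR adjusted p = 0.851 and 0.226). Exons of BRAF overlap NDUFB2 and those of MAP2K1 overlap SNAPC5 and AC116913.1, all on the other strand.

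JUN was the called member of the AP-1 family, the dimeric factors built from FOS and JUN proteins. JUN (ENSG00000177606.6, chromosome 1, 58780788 to 58784327) read 72.3, 67.0 and 90.8 CPM in si-NC and 148, 155 and 141 CPM in si-SNHG17-1. The lowest si-SNHG17-1 library was 1.55 times the highest si-NC library. The mean rose 1.93-fold, from 76.7 ± 12.5 to 148 ± 6.97 CPM (log2 fold change 0.95, standard error 0.12, edgeR adjusted p = 0.00513), and with 1 library left out the adjusted p was 0.00586 to 0.0302. JUND, a constitutively abundant partner, read 284, 278 and 308 CPM against 337, 374 and 347 CPM, higher in all 3 libraries, and just missed the call (log2 fold change 0.28, standard error 0.07, edgeR adjusted p = 0.0505). FOSB was also higher in all 3 libraries, at 3.00, 3.66 and 4.01 CPM and then 5.13, 4.96 and 4.98 CPM, and was not called (log2 fold change 0.50, standard error 0.18, edgeR adjusted p = 0.131). JUNB, another JUN protein, read 585, 541 and 584 CPM in si-NC and 523, 609 and 582 CPM in si-SNHG17-1, and its ranges overlapped. Of its exons, 259 bases overlap HOOK2 on the other strand. FOSL1, a FOS-related gene that ERK activity is known to raise, went from 50.8 ± 6.91 to 59.6 ± 9.46 CPM with overlapping libraries (edgeR adjusted p = 0.375). All 7 AP-1 genes had a positive log2 fold change with TMM scaling, from 0.0036 to 0.95, but 1 was called. Of the 18679 genes tested, 9311 were positive. With size factors or total counts all 7 were positive too, and JUND was called beside JUN. FOSL2 and JUNB turned negative in some fits with another model or a library left out.

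FOS and FOSL2 differed widely among libraries of the same group. FOS, the prototype immediate early gene, read 5.28, 5.99 and 12.6 CPM in si-NC and 15.8, 7.03 and 13.0 CPM in si-SNHG17-1. Replicate 3 of si-NC stood with the higher si-SNHG17-1 libraries, and replicate 2 of si-SNHG17-1 with the lower si-NC libraries. FOS was not called (log2 fold change 0.58, standard error 0.41, edgeR adjusted p = 0.413). FOSL2 read 492, 456 and 463 CPM in si-NC and 248, 647 and 571 CPM in si-SNHG17-1. Its si-SNHG17-1 replicate 1 lay below all si-NC libraries while replicates 2 and 3 lay above them, and without replicate 1 the log2 fold change was 0.38 in place of 0.056 (edgeR adjusted p = 0.0729 and 0.933).

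EGR1 and SRF both rose. EGR1, a zinc finger factor (ENSG00000120738.7, chromosome 5, 138465490 to 138469315), was a low-level gene in these cells, with 248, 352 and 286 counts in si-NC against 448, 581 and 446 after si-SNHG17-1. On the CPM scale the values were 6.58, 8.43 and 7.21 against 11.7, 13.8 and 14.5, and the groups did not overlap. The mean rose 1.80-fold (log2 fold change 0.85, standard error 0.16, edgeR adjusted p = 0.0193). When single libraries were left out, EGR1 lost its edgeR call in 4 of 6 fits, with an adjusted p of 0.0506 (si-NC replicate 1 out), 0.0634 (si-NC replicate 3 out), 0.0711 (si-SNHG17-1 replicate 2 out) and 0.0730 (si-SNHG17-1 replicate 3 out). SRF, the serum response factor that carries ERK and actin signals to immediate early promoters (ENSG00000112658.7, chromosome 6, 43171299 to 43181507), read 169.9, 160.5 and 179 CPM in si-NC and 237, 239 and 231 CPM in si-SNHG17-1. All 3 si-SNHG17-1 libraries were well above the highest si-NC library, and the mean rose 1.39-fold, from 169.8 ± 9.27 to 236 ± 4.17 CPM (log2 fold change 0.47, standard error 0.07, edgeR adjusted p = 0.00819). With 1 library left out its adjusted p was 0.0178 to 0.0472.

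The promoters of EGR1 and SRF are shown because SRF binds the CArG box, a run of A and T bases between CC and GG, and both genes rose. RefSeq promoters (GRCh38.p14, 250 bases before to 50 after the gene's start) were at hand for 37 of the 44 members. FOSL1, EGR3, DUSP4, DUSP5, ETV4, ETV5 and KLF10 had no entry and were not searched. Searched on both strands, the CArG box occurred in 3 of these 37 genes, EGR1, SRF and EGR2, and in 1.49% of the 11308 tested genes with a promoter entry (1.29% of all 35116 promoters of the same length). Each window is 30 bases along the gene's strand, with the CArG box in capitals. Positions upstream, here and below, are counted from the start of the RefSeq entry. That start can differ from the gene coordinates given in the text, and some genes have more than 1 entry (54 promoters for the 37 genes). A match is a description of the letters and not a measured binding site. The FOS promoter has no match in this window, which says nothing about sequence outside it.
EGR1, CArG box at 105 to 96 bases upstream, chr5:138465364-138465393, plus strand: gccggtcctgCCATATTAGGgcttcctgct
EGR1, CArG box at 83 to 74 bases upstream, chr5:138465386-138465415, plus strand: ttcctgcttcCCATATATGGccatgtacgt
SRF, CArG box at 30 to 21 bases upstream, chr6:43171229-43171258, plus strand: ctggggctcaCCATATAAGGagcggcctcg
SRF, CArG box at 10 to 1 bases upstream, chr6:43171249-43171278, plus strand: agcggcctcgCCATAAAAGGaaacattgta
EGR2, CArG box at 71 to 62 bases upstream, chr10:62816418-62816447, minus strand: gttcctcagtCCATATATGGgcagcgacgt

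The EGR site (GCGGGGGCG or GCGTGGGCG) was found in the promoters of 7 of 37 members, DUSP2, KLF2, KLF6, MAPK3, SPRY1, SPRY2 and SRF, and in 11.8% of the 11308 tested genes (5.77% of all 35116 promoters). DUSP2, KLF2, MAPK3, SPRY1 and SPRY2 were not called. The sites of SRF and KLF6, the called rises among the 7, are shown with the EGR site in capitals. The KLF6 site lies upstream of its RefSeq start but within the gene coordinates given below. The MAPK3 site lies after the RefSeq start.
SRF, EGR site at 49 to 41 bases upstream, chr6:43171209-43171238, plus strand: ggaccaatgggGCGGGGGCGctggggctca
KLF6, EGR site at 65 to 57 bases upstream, chr10:3785256-3785285, minus strand: gggggagccagGCGGGGGCGgagggggagg

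EGR2, with the CArG box shown above, was close to absent. It had 8, 4 and 16 counts in si-NC against 0, 0 and 8 after si-SNHG17-1 and was not tested. EGR3, which shares its DNA-binding domain type, had 16, 4 and 0 counts in si-NC against 12, 21 and 26 after si-SNHG17-1. These ranges overlapped, and the fitted change was not called (edgeR adjusted p = 0.389). A floor of 3 counts corresponded to 0.0712 to 0.0977 CPM, counting error only. In this table, counts from 8 to 40 that divide by 4 came up 1.42 to 1.63 times as often as the numbers beside them, and the part of this in low genes was not tested.

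IER2 and IER5 are immediate early genes of their own small family. IER2 read 206, 26.3 and 40.9 CPM in si-NC and 66.4, 52.2 and 28.2 CPM in si-SNHG17-1. Replicate 1 of si-NC held 7.83 times the level of si-NC replicate 2 and exceeded every other library. With it the log2 fold change was −0.89 (SE 0.73), and without it 0.54, neither called (edgeR adjusted p = 0.495 and 0.412). Of IER2's exons, 946 bases overlap AC011446.2, an antisense gene. AC011446.2 had 4897, 5093 and 4795 counts in si-NC against 6380, 7599 and 5057 after si-SNHG17-1. It was called higher (log2 fold change 0.46, edgeR adjusted p = 0.0110), and without strand the reads of the pair cannot be told apart. IER5 read 245, 253 and 303 CPM against 227, 217 and 222 CPM, lower in all 3 si-SNHG17-1 libraries and not called (log2 fold change −0.27, standard error 0.09, edgeR adjusted p = 0.113).

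**Figure D3:**
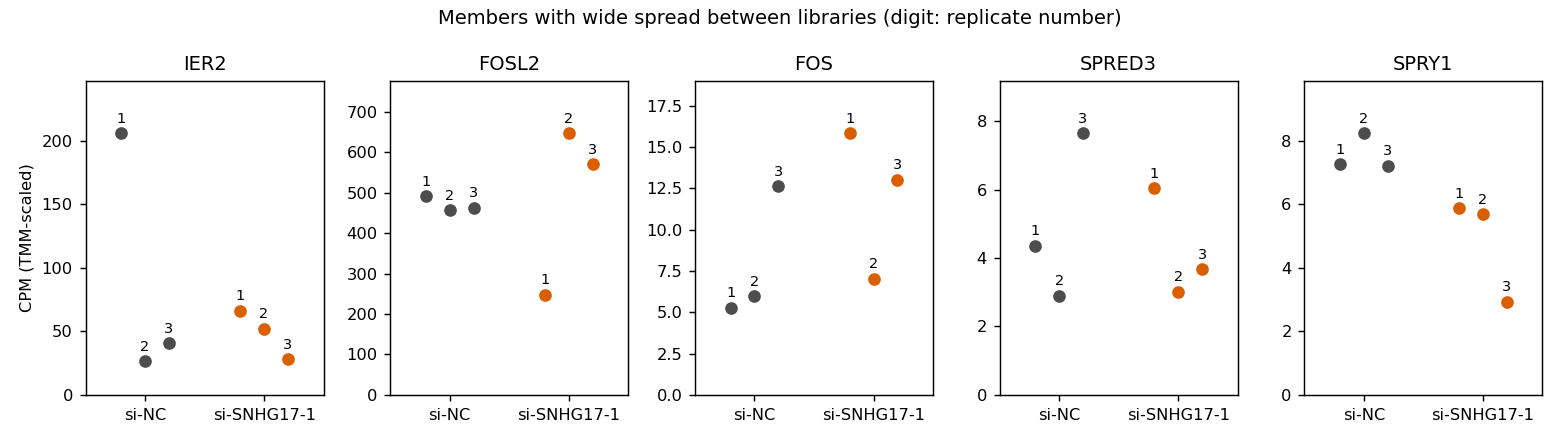
TMM-scaled CPM (y axis, from 0) by library for the 5 members above 1 CPM whose highest library was more than 2 times the lowest within a group, with replicate numbers beside the points. Replicate 1 of si-NC stands apart for IER2, and replicate 1 of si-SNHG17-1 for FOSL2.

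The dual-specificity phosphatases held the largest share of called members, 5 higher and 1 lower of 10 (60%, against 10.5% of all genes tested). Their median log2 fold change was 0.31. DUSP1, DUSP2, DUSP4 and DUSP5 are inducible nuclear enzymes, of which DUSP5 acts on ERK. DUSP6 and DUSP7 are cytoplasmic and prefer ERK, while DUSP8, DUSP10 and DUSP16 prefer JNK and p38. DUSP10 (ENSG00000143507.17, chromosome 1, 221701424 to 221742176) had 239, 234 and 247 counts in si-NC against 675, 715 and 446 after si-SNHG17-1, or 6.34, 5.60 and 6.23 CPM and 17.7, 17.0 and 14.5 CPM. Its lowest si-SNHG17-1 library was 2.29 times its highest si-NC library. The mean rose 2.70-fold, the largest change among the called members (log2 fold change 1.44, standard error 0.15, edgeR adjusted p = 0.00249). DUSP8 (ENSG00000184545.10, chromosome 11, 1554044 to 1571920) read 35.7, 35.4 and 35.9 CPM in si-NC and 60.2, 61.4 and 59.6 CPM in si-SNHG17-1, with the libraries of each group close together. It rose 1.69-fold (log2 fold change 0.76, standard error 0.08, edgeR adjusted p = 0.00303). DUSP16, the third phosphatase of this kind, read 179.6, 159.6 and 146 CPM against 185, 199.5 and 183 CPM, higher in all 3 libraries by a smaller step that was not called (log2 fold change 0.23, standard error 0.09, edgeR adjusted p = 0.169).

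Among the inducible nuclear phosphatases, 3 of 4 were called higher, against 5.25% of all genes tested. DUSP1, which dephosphorylates p38, JNK and ERK (ENSG00000120129.5, chromosome 5, 172768090 to 172771195), read 256, 257 and 301 CPM in si-NC and 426, 422 and 408 CPM in si-SNHG17-1. No library of 1 group reached the other group, and the mean rose 1.54-fold, from 272 ± 25.7 to 419 ± 9.64 CPM (log2 fold change 0.62, standard error 0.08, edgeR adjusted p = 0.00516). DUSP5 (ENSG00000138166.5, chromosome 10, 110497838 to 110511544) read 48.3, 46.1 and 46.5 CPM and then 77.0, 86.0 and 74.6 CPM. It rose 1.69-fold (log2 fold change 0.75, standard error 0.09, edgeR adjusted p = 0.00387), with the si-NC libraries close together. DUSP4 (ENSG00000120875.8, chromosome 8, 29333064 to 29350668) read 141, 133 and 133 CPM against 175, 189 and 169 CPM, a smaller rise of 1.31-fold (log2 fold change 0.39, standard error 0.07, edgeR adjusted p = 0.0199). DUSP4 was no longer called in 4 of the 6 leave-one-out fits, with edgeR adjusted p-values of 0.0577 (si-NC replicate 2 out), 0.0583 (si-NC replicate 3 out), 0.0745 (si-SNHG17-1 replicate 1 out) and 0.0702 (si-SNHG17-1 replicate 2 out). DUSP2 went the other way, at 37.4, 32.0 and 42.3 CPM in si-NC and 26.5, 33.3 and 28.3 CPM in si-SNHG17-1, with overlapping libraries and no call (edgeR adjusted p = 0.178). With 1 library left out, the adjusted p of DUSP1, DUSP5, DUSP8 and DUSP10 did not exceed 0.0358, 0.0243, 0.0243 and 0.0179.

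The ERK-directed cytoplasmic phosphatases had fitted changes close to 0. DUSP6, a standard readout of ERK activity in many cells, read 11.5, 11.2 and 11.4 CPM in si-NC and 10.8, 11.4 and 11.1 CPM in si-SNHG17-1. Its ranges overlapped (log2 fold change −0.035, standard error 0.12, edgeR adjusted p = 0.894). DUSP7 libraries also overlapped (log2 fold change −0.03, standard error 0.11, edgeR adjusted p = 0.896). Both values turned slightly positive with total counts as the scaling. DUSP14, a small phosphatase outside the classical MAP kinase phosphatases (ENSG00000276023.4, chromosome 17, 37489831 to 37513501), fell 1.40-fold. It read 71.5, 65.2 and 69.5 CPM in si-NC and 47.8, 52.7 and 46.9 CPM in si-SNHG17-1, without overlap (log2 fold change −0.48, standard error 0.09, edgeR adjusted p = 0.0177). This edgeR call was lost in 3 of the 6 leave-one-out fits, with an adjusted p of 0.0520 (si-NC replicate 3 out), 0.0812 (si-SNHG17-1 replicate 1 out) and 0.0742 (si-SNHG17-1 replicate 3 out).

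The cyclic AMP response element (CRE, TGACGTCA), which CREB, ATF and some JUN dimers bind, was present in the promoters of DUSP1, DUSP8 and JUND, and the sites are shown because DUSP1 and DUSP8 are among the called rises. That was 3 of 37 members, against 3.56% of the 11308 tested genes (1.85% of all 35116 promoters), searched on both strands. DUSP4 and DUSP5, also called rises, had no promoter entry and were not searched. The AP-1 site (TGACTCA or TGAGTCA) was found in FOSL2, SPRED2 and SPRED3, 3 of 37, against 5.19% of the tested genes (4.95% of all promoters). It was in 0 of the 8 called rises with a promoter entry, and in SPRED2, which fell. The SPRED2 site crosses the start of a RefSeq entry that begins inside the gene coordinates given below. The FOSL2 site lies after its RefSeq start. Windows are 30 bases along the gene's strand (GRCh38.p14, RefSeq) with the CRE in capitals.
DUSP1, CRE at 125 to 118 bases upstream, chr5:172771302-172771331, minus strand: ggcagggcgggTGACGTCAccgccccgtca
DUSP8, CRE at 118 to 111 bases upstream, chr11:1572371-1572400, minus strand: ccgggctccgcTGACGTCAcctgcccccga
DUSP8, CRE at 74 to 67 bases upstream, chr11:1572327-1572356, minus strand: ttggctgcaggTGACGTCAggggctttttt
JUND, CRE at 200 to 193 bases upstream, chr19:18281804-18281833, minus strand: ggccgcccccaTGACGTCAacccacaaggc

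Of the 6 SPRY and SPRED inhibitors, SPRED2 fell and the others were not called (16.7% called, against 10.5% of all genes tested). The median log2 fold change was −0.29, and 5 of the 6 values were negative, as were 9368 of the 18679 genes tested. SPRED2, which recruits the RAS GTPase-activating protein neurofibromin to the membrane (ENSG00000198369.9, chromosome 2, 65310851 to 65432637), read 66.9, 69.9 and 65.8 CPM in si-NC and 48.4, 52.0 and 56.3 CPM in si-SNHG17-1. The groups did not overlap, and it fell 1.29-fold (log2 fold change −0.37, standard error 0.09, edgeR adjusted p = 0.0427). When single libraries were left out, SPRED2 lost its edgeR call in 6 of 6 fits, with an adjusted p of 0.0721 (si-NC replicate 1 out), 0.101 (si-NC replicate 2 out), 0.0822 (si-NC replicate 3 out), 0.159 (si-SNHG17-1 replicate 1 out), 0.131 (si-SNHG17-1 replicate 2 out) and 0.0798 (si-SNHG17-1 replicate 3 out). With total counts as the scaling its adjusted p was 0.0621. SPRED1 read 25.3, 43.7 and 38.8 CPM and 27.6, 28.8 and 29.3 CPM, where si-NC replicate 1 lay below every si-SNHG17-1 library. Its log2 fold change was −0.33 (edgeR adjusted p = 0.326), and without si-NC replicate 1 it was −0.53 and called (edgeR adjusted p = 0.0391). SPRY2, which is commonly induced by ERK, read 35.6, 40.3 and 35.6 CPM against 27.8, 33.8 and 31.8 CPM, lower in all 3 libraries and not called (log2 fold change −0.25, standard error 0.12, edgeR adjusted p = 0.217).

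SPRY1 was also lower in all 3 libraries without being called, at 7.27, 8.24 and 7.21 CPM in si-NC and 5.89, 5.70 and 2.93 CPM in si-SNHG17-1, where replicate 3 was the lowest (log2 fold change −0.64, standard error 0.27, edgeR adjusted p = 0.178). SPRY4 was the member with a positive value, 0.17, with overlapping libraries between 9.05 and 13.7 CPM. SPRED3 was low, between 2.90 and 7.64 CPM, with no call (edgeR adjusted p = 0.777).

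The ETV factors ETV1, ETV4 and ETV5 form the PEA3 subfamily of ETS proteins, whose expression follows ERK activity in many cells. ETV4 (ENSG00000175832.12, chromosome 17, 43527844 to 43579620) fell 1.41-fold. It read 81.5, 69.4 and 77.9 CPM in si-NC and 55.3, 54.7 and 52.2 CPM in si-SNHG17-1, without overlap (log2 fold change −0.50, standard error 0.09, edgeR adjusted p = 0.0172). ETV4 was no longer called in 4 of the 6 leave-one-out fits, with edgeR adjusted p-values of 0.0525 (si-NC replicate 3 out), 0.0677 (si-SNHG17-1 replicate 1 out), 0.0627 (si-SNHG17-1 replicate 2 out) and 0.0712 (si-SNHG17-1 replicate 3 out). Of its exons, 68 bases overlap DHX8 on the other strand, which was not called. ETV5 read 79.0, 82.6 and 72.5 CPM against 63.0, 61.8 and 65.4 CPM, lower in all 3 libraries and just short of the call (log2 fold change −0.30, standard error 0.08, edgeR adjusted p = 0.0645). ETV1 lay the other way, at 18.4, 21.0 and 18.4 CPM and 22.8, 20.4 and 26.6 CPM with overlapping libraries (edgeR adjusted p = 0.260). PHLDA1, a pleckstrin homology domain gene that growth factors induce, read 86.5, 98.3 and 88.5 CPM in si-NC and 97.0, 104 and 131 CPM in si-SNHG17-1, where replicate 3 was the highest, and it was not called (edgeR adjusted p = 0.196).

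The 5 Krüppel-like factors held 2 called rises, KLF6 and KLF10 (40%, against 10.5% of all genes tested). All 5 values were positive, as were 9311 of the 18679 genes tested. KLF6, a zinc finger factor that responds early to serum and injury (ENSG00000067082.14, chromosome 10, 3775996 to 3785281), read 45.5, 30.4 and 39.2 CPM in si-NC and 81.4, 86.2 and 97.2 CPM in si-SNHG17-1. Its lowest si-SNHG17-1 library was 1.79 times its highest si-NC library. The mean rose 2.30-fold, from 38.4 ± 7.58 to 88.3 ± 8.11 CPM (log2 fold change 1.20, standard error 0.15, edgeR adjusted p = 0.00516), and with 1 library left out the adjusted p was 0.00695 to 0.0246. KLF10, first known as a TGF-beta inducible early gene (ENSG00000155090.14, chromosome 8, 102648779 to 102655902), read 83.5, 105 and 91.5 CPM against 129, 141 and 150.0 CPM, without overlap. It rose 1.500-fold (log2 fold change 0.58, standard error 0.11, edgeR adjusted p = 0.0171). This edgeR call was lost in 4 of the 6 leave-one-out fits, with an adjusted p of 0.0578 (si-NC replicate 3 out), 0.0530 (si-SNHG17-1 replicate 1 out), 0.0685 (si-SNHG17-1 replicate 2 out) and 0.0730 (si-SNHG17-1 replicate 3 out). KLF5 stood at 261, 329 and 285 CPM in si-NC and 323, 292 and 318 CPM in si-SNHG17-1, and the ranges overlapped. KLF4 and KLF2 had log2 fold changes of 0.061 and 0.27 with overlapping libraries, and neither was called (edgeR adjusted p = 0.819 and 0.398).

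Levels were compared between genes only per exon length, in CPM per kilobase of the merged exons of GENCODE release 29. On this scale JUNB was the highest member in si-NC, at 313 ± 13.8 (SD, n = 3). JUND followed at 156 ± 8.67 and DUSP1 at 135 ± 12.7, and the mean ± SD ranges of JUND and DUSP1 met. In si-SNHG17-1 the means were 189 ± 10.3 for JUND and 207 ± 4.78 for DUSP1. JUN was at 21.7 ± 3.53 and then 41.8 ± 1.97, so that JUNB was above it in both groups. FOS and EGR1 were at 2.46 ± 1.25 and 2.36 ± 0.300 in si-NC, and DUSP6 at 2.46 ± 0.0409. The merged exons of BRAF span 23432 bases, far more than a single transcript, which lowers its value of 1.93 ± 0.170.

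**Figure D4:**
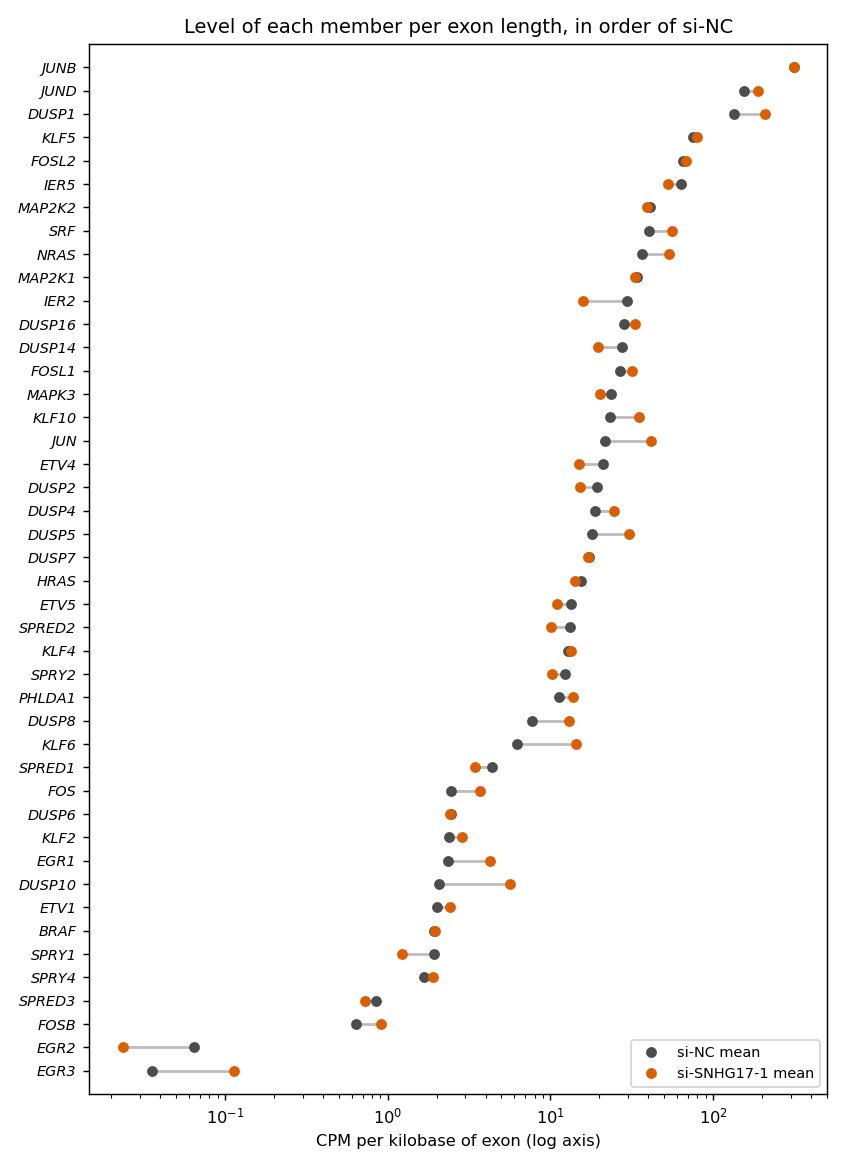
Mean level of all 44 members in CPM per kilobase of exon (log x axis) in si-NC and si-SNHG17-1, ordered by si-NC, with a line joining the group means. JUNB, JUND and DUSP1 lead, and EGR2 and EGR3 are the lowest.

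Other genes of the pathway, outside the 44, were counted from 5 lists of 79 genes. Of these, 15 were called higher, 5 lower and 56 not, and KSR2, RPS6KA2 and EPHA4 were not tested. The share called was 25.3%, against 10.5% of all genes tested. The lists were written with earlier results of these data known, so their shares called, here and below, are no independent evidence. Upstream of RAS, 3 of 15 rose and 2 fell. RASAL2, a RAS GTPase-activating protein, rose from 36.0, 28.7 and 29.96 CPM to 68.9, 69.8 and 72.3 CPM (log2 fold change 1.16, standard error 0.11, edgeR adjusted p = 0.00206). PTPN11, the SHP2 phosphatase that promotes RAS activation, rose 1.38-fold, from 248 ± 17.8 to 342 ± 8.65 CPM (log2 fold change 0.47, standard error 0.07, edgeR adjusted p = 0.00994). SHC1, an adaptor that links receptors to RAS, fell from 181, 165 and 168 CPM to 108, 113 and 103 CPM (log2 fold change −0.66, standard error 0.08, edgeR adjusted p = 0.00371). The adaptor GAB1 and the GTPase-activating protein RASA1 had log2 fold changes of 0.67 and −0.66, called with all libraries. GAB1 lost the call whichever library was left out (edgeR adjusted p 0.0593 to 0.124), and RASA1 in 5, all but the fit without si-NC replicate 3 (up to 0.124).

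Of 16 other RAS, RAF, ERK and scaffold genes, MRAS alone was called (6.25%, against 10.5% of all genes tested). MRAS, a RAS relative that works with the scaffold SHOC2, rose from 9.63, 10.2 and 10.4 CPM to 26.0, 31.2 and 20.1 CPM (log2 fold change 1.35, standard error 0.18, edgeR adjusted p = 0.00542). Of 14 ERK substrates, 3 rose and none fell (21.4% called, against the same 10.5%). They were the kinase MKNK2 and the transcription factors CIC and ETS2, with log2 fold changes of 0.72, 0.41 and 0.33. CIC and ETS2 lost theirs whichever library was left out (edgeR adjusted p of 0.0522 to 0.0789 and 0.0506 to 0.104), and MKNK2 in 4, kept only without si-NC replicates 1 or 2 (up to 0.0611). Of 11 JNK and p38 kinase genes, MAP2K3 and MAP2K6, the kinases that activate p38, both fell (18.2% called). MAP2K3 went from 113, 106 and 126 CPM to 74.5, 69.7 and 72.5 CPM (log2 fold change −0.67, standard error 0.09, edgeR adjusted p = 0.00542). MAP2K6 went from 70.0, 62.8 and 73.3 CPM to 39.6, 35.9 and 47.4 CPM (log2 fold change −0.75, standard error 0.13, edgeR adjusted p = 0.0127), and lost the call without si-SNHG17-1 replicate 1 (edgeR adjusted p = 0.0630).

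Of 23 other immediate early and ERK output genes, 8 rose and 1 fell (39.1% called, against 10.5% of all genes tested). The rises with the smallest adjusted p were PTGS2, CYR61 and CTGF, with no overlap between groups. PTGS2, the inducible cyclooxygenase, rose 3.03-fold. CYR61 and CTGF, secreted matricellular proteins, rose 1.81-fold and 1.74-fold. CCND1, which encodes cyclin D1, fell 2.04-fold, from 479 ± 16.4 to 235 ± 6.18 CPM (log2 fold change −1.03, standard error 0.06, edgeR adjusted p = 0.000413).

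**Figure D5:**
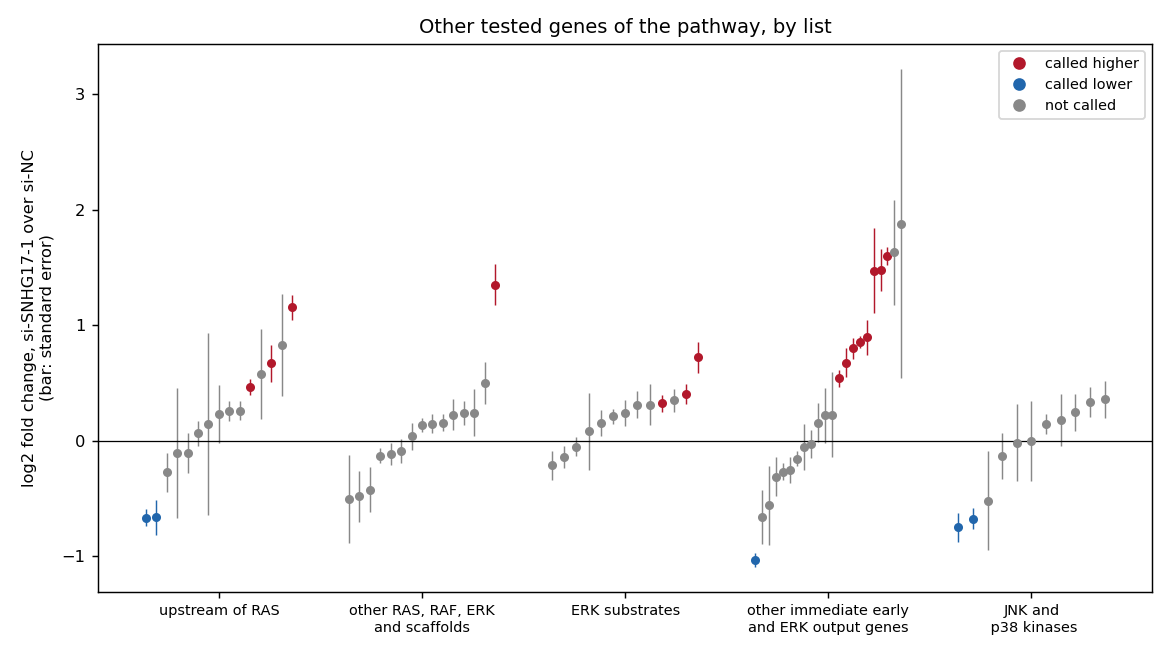
Log2 fold change (y axis, si-SNHG17-1 over si-NC) with its standard error for the 76 tested genes of the 5 other pathway lists, ordered by value within each list and coloured by the edgeR call. Both called JNK and p38 kinase genes lie below 0, and 8 of the 9 called genes among immediate early and ERK outputs lie above it.

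The longest annotated 3′ UTR of each gene was searched for TCAATC, a 6-base word that earlier results of these data had tied to genes that fell after this siRNA. The siRNA's own sequence was not used here. The word occurred in 11 of the 44 members and in 21.1% of the 13760 tested genes with an annotated 3′ UTR. It occurred in 32.3% of genes called lower and 16.6% of genes called higher. The word was picked from these same data for its tie to falling genes, so these shares are no independent evidence. Of the 3 members that fell, SPRED2 held it and DUSP14 and ETV4 did not. Of the 11 that rose, NRAS and KLF6 held it. The 8-base form TTCAATCA was present in BRAF alone among the members, and BRAF was not called. For each of these 4 genes 1 site is shown, for BRAF the 8-base one of its 2, as a window of 30 bases (GRCh38, GENCODE release 29), with the word and its flanking T or A in capitals.
SPRED2, chr2:65311177-65311206, minus strand: gccatactgacgTCAATCAtttgagagaaa
NRAS, chr1:114706898-114706927, minus strand: atataattgccTTCAATCcccttctcaccc
KLF6, chr10:3776760-3776789, minus strand: gataactgagccTCAATCAagcagaaactt
BRAF, chr7:140726063-140726092, minus strand: gatggggcagtTTCAATCAccaagcatcgt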

How the data were processed

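RNA sequencing was compared between 3 si-NC and 3 si-SNHG17-1 libraries, grouped and numbered by their titles. The authors deposited 1 table of raw counts by gene, without normalisation. Alignment was made with HISAT2 to GRCh38, per the submitters' processing notes. Details not given in the sources used here include the counting program, the annotation release and the use of strand. Without strand, overlapping genes on opposite strands cannot be separated.

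Genes were kept by filterByExpr (minimum count 10, minimum total 15), which left 18679 of 58243. edgeR 4.0.16 in R 4.3.3 was run with TMM scaling and the quasi-likelihood F test without a replicate block. P-values were Benjamini-Hochberg adjusted over all genes tested, with calls made below 0.05. Standard errors were derived from the log2 fold change and its F statistic. The fit was also run on simulated counts. The changes planted there were larger than those of most called members, so that run gives no measure at their size. Exon lengths, overlaps and 3′ UTRs came from GENCODE release 29, in which 57980 genes of the table matched without the version, and promoters from RefSeq (GRCh38.p14).

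The members, lists and tests were chosen with earlier results of these data known. Values per library are given for called members and for the member of each role with the highest mean CPM in si-NC, and of the other pathway lists up to 3 called genes per direction are named. Other members were named to describe their role, and the members with wide spread were picked after their values were seen. Alternatives were scaling by median-of-ratios size factors or by totals, testing all genes with any count, keeping genes with 1 CPM or more in 3 libraries or more, DESeq2 1.42.0, limma 3.58.1 with voom, a replicate block, and each library left out.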

Additional observations from a re-analysis of the deposited data

How the results depend on the processing

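The fall of SNHG17 kept its call under all 13 alternatives, with log2 fold changes from −1.53 to −1.47. Counts of called genes moved more. With a replicate block, 273 genes were higher and 259 lower in place of 980 and 974, 7 members were higher and 0 lower in place of 11 and 3, and 9 other pathway genes were higher in place of 15. Libraries sharing a number did not deviate together (correlations of −0.03, −0.07 and −0.07 for numbers 1, 2 and 3), none correlated best with its own number, and the numbers were not taken as pairs. Beside the 3 falls, the block took the edgeR call from NRAS, EGR1, SRF and DUSP4, and, of the other pathway genes named, from PTPN11 (adjusted p = 0.0547), GAB1, RASA1, MKNK2, CIC and ETS2. With no filter beyond a total above 0, 670 genes were higher and 627 lower. With 1 library left out, 313 to 694 genes were higher and 264 to 705 lower, 7 to 10 members were higher and 0 to 3 lower, and 9 to 12 other pathway genes were higher and 3 to 5 lower. DESeq2 called 1424 genes higher and 1395 lower, with 12 and 3 members. JUND was called higher with size factors, total counts, the 1 CPM filter, DESeq2 and limma-voom (adjusted p of 0.0317 to 0.0468), NRAS lost its call with no filter (0.0639), and SPRED2 with no filter and with total counts (0.0684 and 0.0621).

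Changes of sign were seen only in members that were not called. With total counts the log2 fold changes of MAP2K1, DUSP6 and DUSP7 were 0.011, 0.0057 and 0.011, and FOSL2 was −0.062 with limma-voom and −0.052 with the block. With 1 library left out, the ranges were −0.051 (without si-NC replicate 3) to 0.061 (without si-NC replicate 1) for BRAF, −0.058 (without si-NC replicate 1) to 0.025 (without si-NC replicate 3) for MAP2K1, −0.19 (without si-SNHG17-1 replicate 2) to 0.38 (without si-SNHG17-1 replicate 1) for FOSL2, −0.037 (without si-SNHG17-1 replicate 2) to 0.072 (without si-SNHG17-1 replicate 1) for JUNB, −1.33 (without si-NC replicate 2) to 0.54 (without si-NC replicate 1) for IER2, −0.085 (without si-NC replicate 2) to 0.079 (without si-SNHG17-1 replicate 3) for DUSP7, −0.56 (without si-SNHG17-1 replicate 1) to 0.23 (without si-NC replicate 3) for SPRED3 and −0.016 (without si-NC replicate 1) to 0.21 (without si-NC replicate 2) for KLF4. A left-out library lowers the number of samples, and for the other moves the cause was not tested. Depth limits EGR2 and EGR3, which had at most 26 counts in any library.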
